A study of Mus musculus with 6 samples.

Results

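The genes examined here lie on mouse chromosome 9 over 10 and up to 20 Mb from Nrg4, on both sides of it. The product of Nrg4, neuregulin 4, is a secreted growth factor that binds ErbB receptors. Members were found from the RefSeq gene table of assembly GRCm38.p6 as genes whose interval begins or ends at that distance from the Nrg4 interval. Only probe sets with exactly 1 gene symbol were kept, and Sc5d, Hspa8, Hyou1, Anxa2 and symbols starting Rp or Atp5 were left out. This gave 275 probe sets of 160 genes, out of 28898 probe sets of 17097 genes with 1 symbol in the whole series. On the proximal side, toward the centromere, lay 89 of the genes with 136 probe sets, and on the distal side 71 genes with 139 probe sets. The nearest members were Tmprss4 at 10.02 Mb on the proximal side and Pdcd7 at 10.1 Mb on the distal side, with Il10ra at 9.95 Mb and Parp16 at 9.93 Mb just outside. The farthest were Fam118b, on the proximal side, and Myo5c, on the distal side, both at 19.95 Mb, with Srpr and, at 20.02 Mb, Gnb5 just beyond the limit.

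The study profiled liver RNA from wild-type and Nrg4 knockout mice, both labelled C57BL/6. All the mice, controls included, ate a high-fat diet (Research Diets D12492) for 8 weeks from 3 months of age, and livers were taken from random-fed animals. Each genotype has 3 arrays, and each array was hybridised with an independent pool of liver RNA. The sources used here give neither how the allele was made nor how many mice formed a pool, and p-values describe the spread between pools.

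Genes on one chromosome are inherited together unless recombination separates them. A mutant allele that is bred into another strain can therefore keep a stretch of the donor chromosome on each side of the gene, and that stretch shortens over generations of backcrossing. Neighbours in such a stretch can differ between mutant and control mice in their expression, and they can also differ in the sequence that an array probe has to match. Whether the knockout carries such a stretch was not tested. On these arrays a gene is read by 1 or more probe sets, each a group of short probes along its transcript, mostly near its 3' end.

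All values are log2 signals, and changes are knockout minus wild type. Nrg4 itself read 4.94, 4.79 and 4.77 in wild type and 2.56, 2.43 and 2.64 in the knockout, as the labels would have it. The 6 arrays had medians of 2.98 to 3.04, and their number limits the precision. Hepatocyte markers marked the tissue as labelled, with list means of 11.20 to 11.29 and a median log2 change of -0.02. Endothelial markers had a higher value in the knockout in 8 of 8 genes, with list means of 4.88 to 5.19 in wild type and 5.29 to 5.67 in the knockout. Macrophage markers were higher in 7 of 7, at 6.02 to 6.23 in wild type and 6.15 to 6.89 in the knockout, and stellate cell and matrix markers in 6 of 7, at 5.01 to 5.13 in wild type and 5.28 to 5.44 in the knockout. The endothelial and stellate list means were apart between genotypes and the macrophage ones overlapped, and no marker of these lists passed limma's test. The endothelial means lean on Lyve1, at a log2 change of 1.29, where the other markers of that list stood at 0.21 to 0.49. Of 8 T cell markers, 7 were on the array and 4 were tested, and Cd3g, Cd2 and Cd247 were too dim to test. Values were higher in 3 of these 4. Among cholangiocyte markers 2 were tested and 2 were higher, Epcam at 0.04 and Sox9 at 0.35. Over all probe sets tested, 58.2% were higher. Knockout replicate 1 had the lowest 5' signal relative to 3' signal over the Actb and Gapdh control probe sets, with a mean difference of -1.31 against -0.96 to -0.65 in the other arrays. The 18S ribosomal RNA controls were apart between genotypes, at 8.12, 8.80 and 8.69 in wild type and 6.06, 6.71 and 5.61 in the knockout in the 5' set, and at 7.45 to 7.73 against 6.67 to 6.89 in the 3' set. The part of these differences in the results below was not tested.

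Of the 275 member probe sets, 172 from 113 genes were bright enough to be tested, with a mean over the 6 arrays at or above log2 2.66. The other 103 were dim, and 47 genes had no tested probe set. The comparison of knockout with wild type was fitted with limma over 27022 probe sets of the whole array. At an adjusted p under 0.05, 1 of the 172 passed, a probe set of Mpzl2 that rose, where 0.0481% of all tested probe sets passed, 0.0148% higher and 0.0333% lower. At an adjusted p under 0.10 there were 4, from Mpzl2, Sorl1, Dapk2 and Mindy2, against a background of 0.255%. At an unadjusted p under 0.01 there were 19 from 18 genes, which is 11.0% of those tested where the background was 2.81%. These 19 were split into 9 higher and 10 lower in the knockout, with backgrounds of 1.53% and 1.27%. In 39 member probe sets, or 22.7%, the 3 knockout arrays did not overlap the 3 wild-type arrays, where the background was 15.2%. Of these, 20 were higher and 19 lower, with backgrounds of 9.67% and 5.55%. At an unadjusted p under 0.05 there were 38, with 20 higher and 18 lower, where the background was 9.5%, as 5.83% and 3.67%. These shares are descriptions, since no test of the group was made.

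Most members moved little. The median log2 change over the 172 was 0.02, with quartiles of -0.08 and 0.16, beside a median of 0.03 with quartiles of -0.07 and 0.12 over all probe sets tested. A higher value in the knockout was found in 98, or 57.0%, and a lower value in 74, beside 58.2% higher over all probe sets tested. Changes over 1.5-fold were found in 6, or 3.49%, beside 1.21% of all probe sets tested. These 6 are 1 probe set each of Mpzl2, Sorl1, Ddx6, Mindy2, Dapk2 and Rfx7.

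Mpzl2 encodes an adhesion protein of the immunoglobulin superfamily found on epithelial cells. It lies 10.2 Mb from Nrg4 on the proximal side, near the border of the window. Its probe set 1416237_PM_at read 4.06, 4.10 and 4.20 in wild type and 5.47, 5.86 and 5.64 in the knockout. The genotypes were thus apart by 1.27 between their closest arrays, and the probe set rose 2.90-fold (log2 change 1.53, SE 0.12, 95% confidence interval 1.27 to 1.80, limma adjusted p = 0.00357). Both of its other probe sets showed far smaller changes. One of them, 1416236_PM_a_at, read 6.61, 6.62 and 6.55 against 6.88, 6.89 and 6.72, a log2 change of 0.24 (interval 0.03 to 0.45, limma adjusted p = 0.464). The other, 1448265_PM_x_at, read 7.31, 7.52 and 7.35 against 7.64, 7.75 and 7.38, a log2 change of 0.20 (interval -0.08 to 0.47). Neither of these passed, and the intervals of both ended below that of the first.

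Sorl1 encodes a sorting receptor that moves cargo between the Golgi and endosomes, and it lies 13.1 Mb away on the proximal side. Its main probe set read 4.45, 3.73 and 4.34 in wild type and 5.12, 5.35 and 5.22 in the knockout. All knockout arrays lay above all wild-type arrays, with wild-type replicate 2 the lowest of the 6. The log2 change was 1.05 (SE 0.18, limma adjusted p = 0.0989), which missed the threshold. Another tested probe set of Sorl1 had a change of 0.19, and the dim one read 1.83, 1.80 and 1.60 against 2.21, 2.31 and 2.25, again without overlap.

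Pigbos1 encodes a small protein of the mitochondrial outer membrane and lies 17.8 Mb away on the distal side. Its probe set 1435237_PM_at read 7.18, 6.99 and 6.99 in wild type and 7.56, 7.50 and 7.68 in the knockout, a log2 change of 0.53 (limma adjusted p = 0.135). The probe set 1435238_PM_x_at read 6.78, 6.46 and 6.62 against 7.22, 7.12 and 7.21, a log2 change of 0.56 (limma adjusted p = 0.133). The genotypes were apart in both, and the changes were nearly alike. Pigb, an enzyme of glycosylphosphatidylinositol anchor synthesis, overlaps Pigbos1 by 6 bases in the gene table. Its tested probe sets had log2 changes of -0.09 (SE 0.10) and 0.02 (SE 0.10), so the neighbours read differently.

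Rab8b, a small GTPase of vesicle transport, read 4.26, 4.43 and 4.28 in wild type and 4.66, 4.92 and 5.04 in the knockout, a log2 change of 0.55 (limma adjusted p = 0.185). Tpm1, tropomyosin 1 of actin filaments, had changes of 0.56 and 0.37 in its tested probe sets, and only the first separated the genotypes. Among the next genes by p, Fam118b stood at 0.50 and 0.34, and the wild-type mean of the first was below the limit of 2.66. Arpp19, an inhibitor of protein phosphatase 2A, stood at 0.31 in 1 probe set and at 0.06 and -0.10 in the others, whose groups overlapped. Siae, a sialic acid esterase, stood at 0.34, 0.19 and -0.24, so that its probe sets differed in sign. Ift46 of intraflagellar transport stood at 0.35. The non-coding D630033O11Rik stood at 0.34. The ubiquitin ligase Cbl stood at 0.31 in 1 probe set and at -0.33 in its other tested one. None of these passed over all probe sets.

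Dapk2, a calmodulin-regulated protein kinase of the death-associated family, lies 10.9 Mb away on the distal side. Its single probe set read 3.78, 3.74 and 3.92 in wild type and 3.03, 3.15 and 2.80 in the knockout. The genotypes were apart by 0.59, and the log2 change was -0.82 (SE 0.11, limma adjusted p = 0.069). The signal was low, and the knockout values lay near the array medians of 2.98 to 3.04. With a single probe set, no agreement within the gene could be examined.

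Mindy2 encodes a deubiquitinase that trims lysine 48-linked chains, and it lies 15.3 Mb away on the distal side. Probe set 1436842_PM_at read 5.06, 4.75 and 4.73 in wild type and 3.83, 4.18 and 4.05 in the knockout, a log2 change of -0.83 (SE 0.13, limma adjusted p = 0.0777). A second one, 1454983_PM_at, read 4.15, 3.99 and 4.33 against 3.88, 3.68 and 3.88, a log2 change of -0.34 (limma adjusted p = 0.395). These 2 separated the genotypes. The remaining one, 1436841_PM_at, overlapped widely, with wild-type values of 5.16, 4.89 and 4.50 and knockout values of 4.26, 4.94 and 5.01. Its change of -0.11 turned to 0.05 without wild-type replicate 1 and to 0.13 without knockout replicate 1.

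Trappc4 is a subunit of the TRAPP complex that tethers vesicles on the way to the Golgi, and it lies 10.8 Mb away on the proximal side. Its main probe set read 6.78, 6.83 and 6.83 in wild type and 6.35, 6.35 and 6.35 in the knockout. The SD within the knockout was 0.004, and the log2 change was -0.46 (SE 0.08, limma adjusted p = 0.118). The other probe set had a log2 change of -0.10, and its groups overlapped.

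Ddx6, an RNA helicase of processing bodies that represses translation, lies 10.6 Mb away on the proximal side. Probe set 1439122_PM_at read 6.18, 6.14 and 6.10 in wild type and 5.11, 5.54 and 4.49 in the knockout, a log2 change of -1.09 (SE 0.22, limma adjusted p = 0.17). The knockout arrays spread widely, with an SD of 0.53 against 0.04 in wild type. The other probe sets had changes of -0.47 and -0.15, and their groups overlapped.

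Rfx7, a transcription factor of the regulatory factor X family, read 3.64, 3.97 and 3.62 in wild type and 2.81, 3.10 and 3.19 in the knockout in 1 probe set (log2 change -0.71, limma adjusted p = 0.142). Its other probe set stood at -0.04 and overlapped. Dpagt1, which starts the lipid-linked sugar chain for N-glycosylation, read 6.18, 6.39 and 6.35 against 5.76, 6.00 and 5.78 (log2 change -0.46, limma adjusted p = 0.231). Zfp280d, a zinc finger protein, had changes of -0.45 and -0.10. Onecut1, a hepatocyte transcription factor also called HNF6, had probe sets of opposite sign, at -0.56 and 0.31, of which only the first separated the genotypes. Lower values were also seen for Tmem25, a membrane protein, at -0.42, and the non-coding Gm16551 at -0.36, whose knockout mean was below the limit of 2.66. Trip4, a transcriptional coactivator, stood at -0.29 and -0.33, with its brightest probe set at 0.04. None of these passed.

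**Figure D1:**
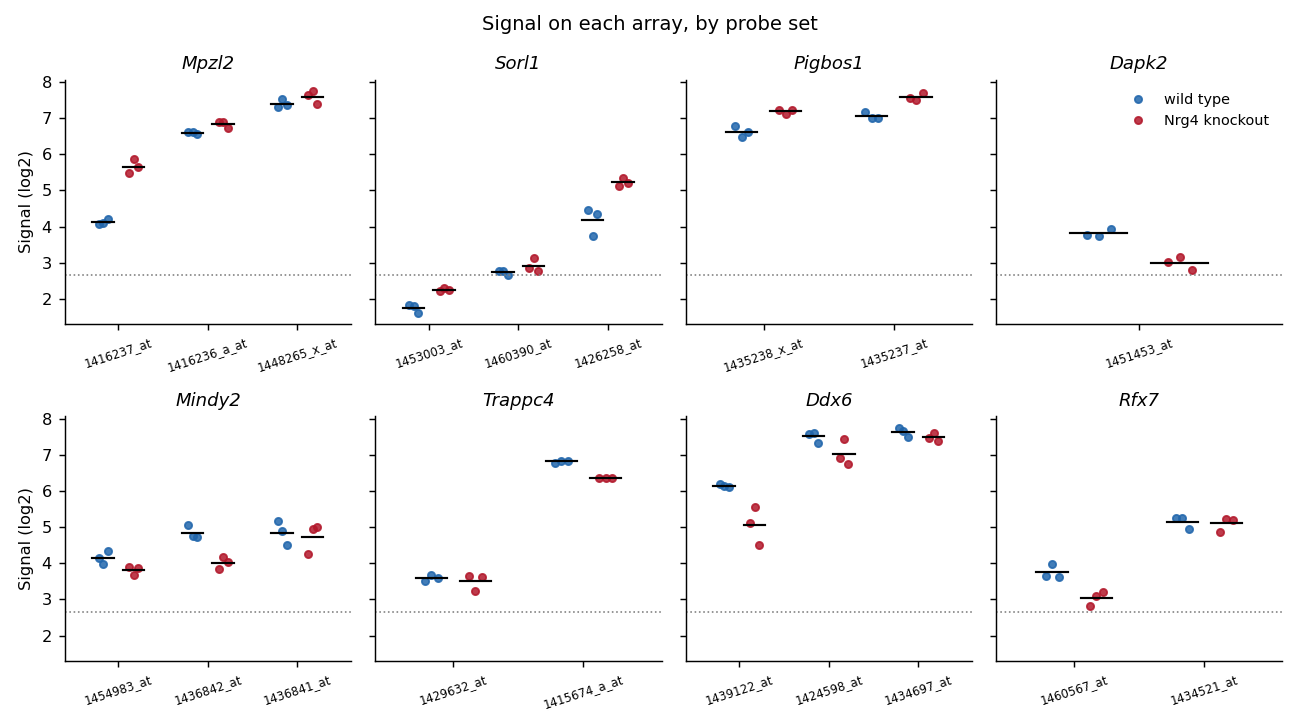
Each panel plots the log2 signal of every probe set of a gene, with 3 wild-type arrays in blue and 3 knockout arrays in red; black lines are group means and the dotted line is the limit for dim probe sets, 2.66. In Mpzl2 the leftmost probe set moved by 1.53 while the others moved by 0.24 and 0.20, and in Pigbos1 both moved by similar amounts.

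The sequences upstream of the members with an adjusted p under 0.10 are shown because these genes had the smallest p-values among the members. The RefSeq promoter table of GRCm38.p6 holds 3 of the 4, and the fourth is Mpzl2. Each run is the 250 bases before the first listed start of the gene, 5′ to 3′ on the gene's own strand. Dapk2 is chr9:66157976-66158225 on the plus strand, Mindy2 is chr9:70657175-70657424 on the minus strand and Sorl1 is chr9:42124298-42124547 on the minus strand. Capitals mark matches, on either strand, to any of 5 motifs: the TATA box TATAAA, the CCAAT box CCAAT, the GC box GGGCGG, the cyclic AMP response element TGACGTCA and the E box CACGTG.
Dapk2: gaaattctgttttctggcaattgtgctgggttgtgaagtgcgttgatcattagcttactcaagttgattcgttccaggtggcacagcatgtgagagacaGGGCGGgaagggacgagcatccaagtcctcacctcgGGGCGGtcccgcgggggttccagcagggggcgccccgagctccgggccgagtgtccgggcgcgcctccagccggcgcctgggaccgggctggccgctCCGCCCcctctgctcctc
Mindy2: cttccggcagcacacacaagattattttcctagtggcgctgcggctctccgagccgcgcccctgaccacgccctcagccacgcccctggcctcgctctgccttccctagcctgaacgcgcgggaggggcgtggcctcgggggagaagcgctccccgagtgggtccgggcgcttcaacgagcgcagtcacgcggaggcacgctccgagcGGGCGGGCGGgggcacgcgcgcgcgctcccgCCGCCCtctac
Sorl1: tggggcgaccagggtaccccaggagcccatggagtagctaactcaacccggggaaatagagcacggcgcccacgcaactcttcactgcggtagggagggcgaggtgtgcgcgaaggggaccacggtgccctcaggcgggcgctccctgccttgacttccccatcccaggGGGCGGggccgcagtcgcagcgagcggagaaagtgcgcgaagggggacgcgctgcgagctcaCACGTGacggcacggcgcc
Dapk2 and Mindy2 each held 3 GC box matches, of which a pair in Mindy2 overlap, and Sorl1 held 1 GC box and 1 E box. The GC box was found in 32.9% of 27025 upstream windows of the same length in the table and the E box in 6.05%, and in 52.0% and 5.69% of the 123 member genes that the table holds. No TATA box, CCAAT box or cyclic AMP response element was in these 3 windows. The shares over all windows were 13.0%, 34.5% and 1.62%, and over the member windows 4.88%, 31.7% and 1.63%. The G and C content was 65.2% in Dapk2, 73.2% in Mindy2 and 69.6% in Sorl1. The median was 52.0% over all windows and 58.4% over the member windows. These matches describe the letters of the reference strain and say nothing on binding.

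Change was then followed by position. On the proximal side, 86 probe sets were tested and 8 of them, 9.3%, were at an unadjusted p under 0.01, as 4 higher and 4 lower. On the distal side 86 were tested as well, and 11, or 12.8%, were at that p, as 5 higher and 6 lower. The difference between the sides was not tested. In steps of 2.5 Mb away from Nrg4, the proximal side had 6 of 55, 1 of 9, 0 of 2 and 1 of 20 at that p. The distal side had 4 of 37, 0 of 10, 3 of 25 and 4 of 14. Of these 8 steps, 4 hold fewer than 20 tested probe sets.

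The sizes of the changes showed little relation to distance. Spearman's rank correlation of the absolute log2 change with distance was -0.11 over the 172 probe sets, -0.21 over the proximal and 0.02 over the distal ones. The points share the same 6 arrays, and several belong to the same gene. Median absolute changes of the steps holding 20 or more probe sets were 0.14 and 0.15 on the proximal side, nearest and farthest, and 0.14 and 0.11 on the distal side, at 10 to 12.5 Mb and 15 to 17.5 Mb. In the farthest distal step, from 17.5 to 20 Mb, the 4 probe sets were those of Pigbos1, Onecut1 and Arpp19. The farthest proximal step held 1, the Fam118b probe set at 19.95 Mb.

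**Figure D2:**
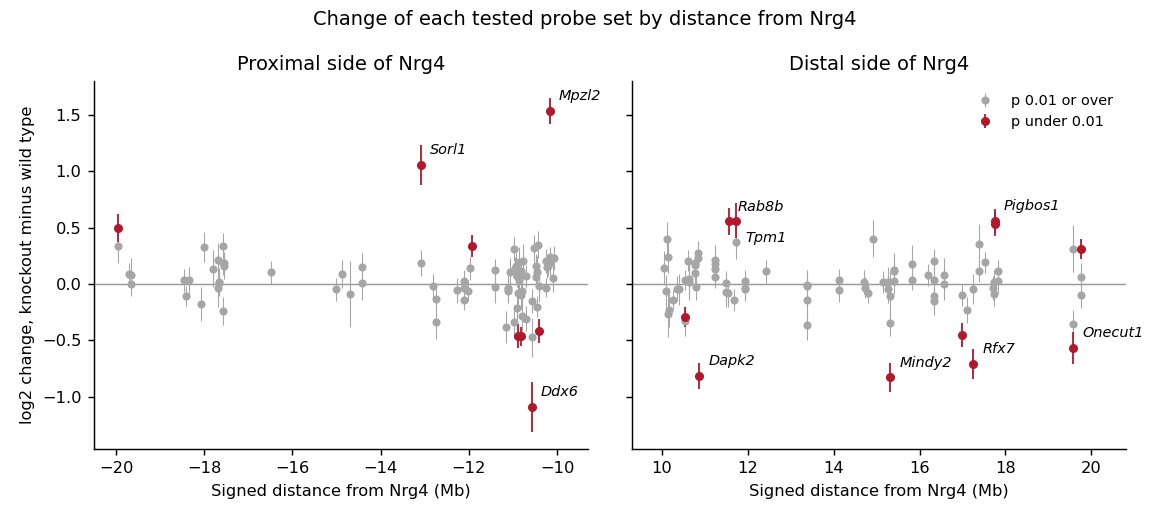
Each point is a tested probe set, placed by the distance of its gene from Nrg4 in Mb (negative on the proximal side) and by its log2 change, knockout minus wild type, with its SE as a bar; red points had an unadjusted p under 0.01. Large changes of both signs lie among points near 0 at the same distance, such as Mpzl2 at 1.53 and Ddx6 at -1.09.

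The nearest members with a tested probe set on each side of the leading members are given for their values. Dim genes, genes left out by symbol and genes not on the array are passed over, so these need not be adjacent genes. Since the leading members were picked for small p, smaller changes beside them follow from that choice. Next to Mpzl2 lie Cd3e, a chain of the T cell receptor complex, at a log2 change of 0.16 and Scn2b, a sodium channel subunit, at 0.05. Beyond these, Cd3d stood at 0.15 and Scn4b at 0.23. Dapk2, at -0.82, lies between Ciao2a, an assembly factor for iron-sulfur proteins, and Usp3, a histone deubiquitinase. Ciao2a stood at 0.23 and 0.27 and Usp3 between 0.06 and 0.21 in 4 probe sets, so that the signs on both sides were opposite to that of Dapk2. Sorl1, at 1.05, lies between Clmp, an adhesion protein, at 0.15 and 0.01 and Tecta, a protein of the inner ear, at -0.02. Mindy2 lies between Sltm, with changes of -0.04 and 0.02, and the protease Adam10, with changes of 0.02 to 0.12. Trappc4 lies between Slc37a4, the glucose 6-phosphate transporter, at 0.11 and Ccdc84 at -0.28 and -0.06. A stretch of 3 tested genes with lower values was Zfp280d, Gm27230 and Rfx7, at -0.45, -0.23 and -0.71 in the probe sets with the smallest p of each. The other, brighter probe sets of Zfp280d and Rfx7 stood at -0.10 and -0.04, and the groups of Gm27230 overlapped. The tested members flanking this stretch were Tcf12, at 0.08 and -0.0008, and Nedd4, at 0.36 and 0.12. Of the neighbours named in this paragraph, none passed over all probe sets.

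The share of probe sets at an unadjusted p under 0.01 was set beside that of other distances on the chromosome. It was 10.2% of 205 within 10 Mb of Nrg4, 11.0% of 172 between 10 and 20 Mb, 12.5% of 88 between 20 and 30 Mb and 6.46% of 526 farther away. On other chromosomes, or without a position here, it was 2.51% of 17809. These shares join both sides of Nrg4, which differed nearest to it. Among probe sets placed on a side, it was 18.1% of 94 proximal and 3.7% of 108 distal ones within 10 Mb. For the members it was 9.3% and 12.8%. Between 20 and 30 Mb, 4 of 40 proximal and 7 of 48 distal probe sets were at that p. The similar pooled shares within 30 Mb thus do not hold for each side. The same exclusions by symbol were made at every distance, and Nrg4 was left out. All these groups come from the same 6 arrays and no difference between them was tested. Within 10 Mb 7 were higher and 14 lower, between 10 and 20 Mb 9 and 10, and between 20 and 30 Mb 6 and 5. On other chromosomes 287 were higher and 160 lower. Changes ran from -1.09 to 1.53 at 10 to 20 Mb and from -1.36 to 1.78 nearer to Nrg4. Over 1.5-fold were 6 and 10 probe sets, or 3.49% and 4.88%, beside 0.966% on other chromosomes. Of those 10, 9 lay on the proximal side.

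**Figure D3:**
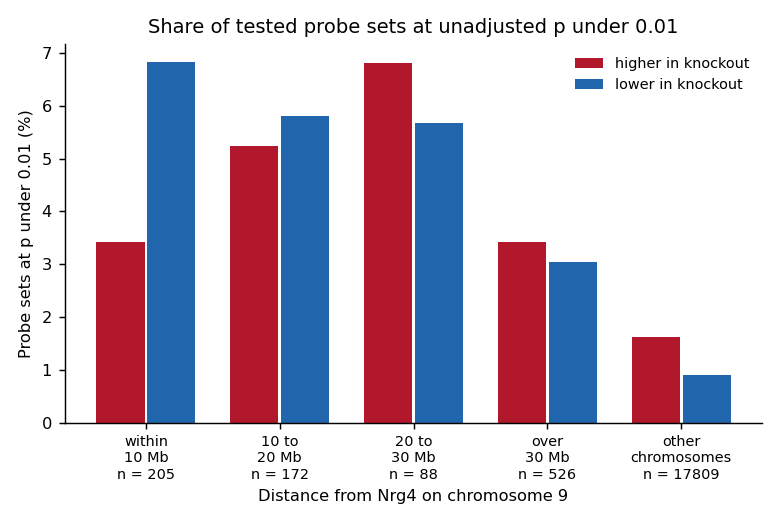
Bars give the percent of tested probe sets at an unadjusted p under 0.01, higher (red) or lower (blue) in the knockout, for genes at each distance from Nrg4 on chromosome 9 and for other chromosomes or no position. The members, between 10 and 20 Mb, had 5.23% higher and 5.81% lower, beside 1.61% and 0.898% on other chromosomes.

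Agreement within a gene could be examined in 44 genes with at least 2 tested probe sets. All probe sets had the same sign in 26 of them, or 59.1%, beside 48.1% of 4342 other genes of the array. The median range between the log2 changes of a gene was 0.20, beside 0.16 in the other genes. A range over 0.5 was found in 9 of the 44, or 20.5%, beside 5.37% of the others. These shares were not tested. Probe sets of a gene share the arrays and often the transcript, so they are not replicates.

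The genes with the widest ranges were Mpzl2 (1.34), Ddx6 (0.94), Onecut1 (0.88), Sorl1 (0.87), Mindy2 (0.72) and Rfx7 (0.66). In all of these but Onecut1 the probe sets shared a sign, and 1 of them carried most of the change, although 1 probe set each of Mindy2 and Rfx7 turned sign when an array was left out. At the other end, Pigbos1 had a range of 0.03 and Ciao2a one of 0.04, with changes of 0.23 and 0.27. In 7 genes at least 2 probe sets had an unadjusted p under 0.05 in the same direction, which were Mpzl2, Tpm1, Ciao2a and Pigbos1 with higher values and Ddx6, Mindy2 and Trip4 with lower ones. These are 15.9% of the 44, where the share in the other genes was 2.3%, and the difference was not tested. Trip4, whose interval overlaps that of Pclaf by 13229 bases, held a further probe set at 0.04. Cbl was the only member gene with probe sets past that p in both directions, at 0.31 and -0.33, beside 22 of 4342 other genes. No member gene with 3 or more tested probe sets had all of them past it.

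How a gene is represented mattered for these members. Of the 19 probe sets at an unadjusted p under 0.01, 8 were the brightest of their gene, some of them as its single tested probe set. In genes with at least 2 tested probe sets and 1 or more at that p, the smallest p was compared with brightness. It fell on the brightest probe set in 2 of 13 member genes and in 80 of 273 other genes. So it was mostly not the brightest in other genes either, and the difference was not tested. With each gene represented by its brightest probe set, 8 of 113 genes were at that p and none passed at an adjusted p under 0.05, since the brightest probe set of Mpzl2 is the one with a change of 0.20. The brightest probe set carried the larger change in Trappc4 and Sorl1, and not in Ddx6, Mindy2 or Rfx7.

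**Figure D4:**
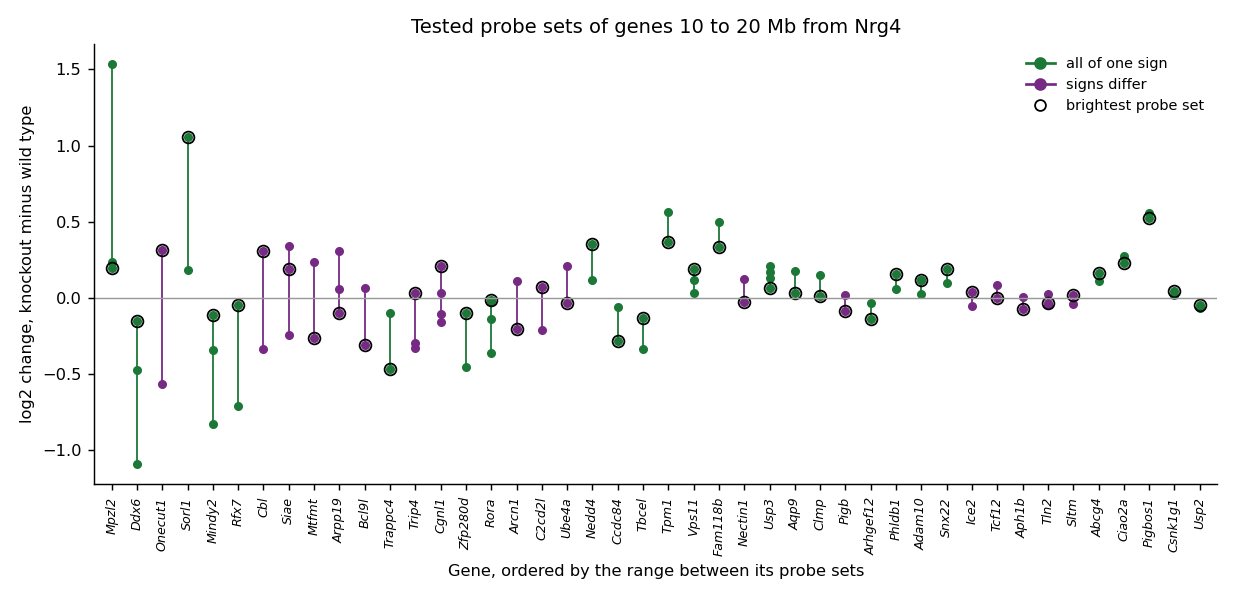
Each column is a member gene with at least 2 tested probe sets, ordered by the range of their log2 changes; points are probe sets, green where all have the same sign and purple where signs differ, and black circles mark the brightest. Ranges run from 1.34 in Mpzl2 to 0.02 in Usp2, and in Mpzl2, Ddx6, Mindy2 and Rfx7 the circle lies nearest to 0.

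The members were also read by function, and each group is small. Over all probe sets tested, 58.2% had a higher value in the knockout and the median log2 change was 0.03, while 1.53% were higher and 1.27% lower at an unadjusted p under 0.01. The group of transcription, chromatin and cell cycle genes had 26 tested probe sets of 14 genes. Values were lower in 19 and higher in 7, with a median log2 change of -0.05. At an unadjusted p under 0.01, 4 were lower, those of Rfx7, Ddx6, Zfp280d and Trip4. The 19 include 3 probe sets of Ddx6, an RNA helicase that represses translation. The transcription factor Onecut1, at -0.56 and 0.31, was not on this list. Rora, a nuclear receptor of lipid and clock control, stood at -0.36 in 1 probe set (5.65, 6.15 and 5.90 in the knockout against 6.20, 6.29 and 6.30) and between -0.14 and -0.01 in 3 others. No member of the group passed over all probe sets. Vesicle transport and sorting genes had 14 tested probe sets, 9 higher and 5 lower, with a median of 0.10. Sorl1 and Rab8b were on the higher side and Trappc4 on the lower side at that p, while the 3 probe sets of Vps11, of the vacuole tethering complexes, stood between 0.03 and 0.19.

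Cell adhesion and endothelial genes had 18 tested probe sets, 13 higher and 5 lower, with a median of 0.11, and Mpzl2 was the only gene with a probe set past the test. Cgnl1, a junction protein, stood at 0.21 in 1 of 4 probe sets and at -0.15, -0.10 and 0.03 in the others. Esam and Robo4, both endothelial, stood at 0.21 and 0.14 with overlapping groups. The endothelial marker list, which holds Esam itself, had a median of 0.31, and its part in these values was not tested. T cell and leukocyte genes had 3 tested probe sets, with Thy1 at -0.38, Cd3e at 0.16 and Cd3d at 0.15. In bulk liver, fewer cells of a type and less RNA per cell cannot be told apart.

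Ubiquitin ligases and deubiquitinases had 20 tested probe sets, 11 higher and 9 lower, with a median of 0.04. That count includes Siae, an esterase that is not an enzyme of ubiquitin and was listed there in error. Mindy2 was the only gene at an unadjusted p under 0.01, and Nedd4, a ubiquitin ligase, stood at 0.36 and 0.12. Metabolic enzymes and transporters had 11 tested probe sets, 7 higher and 4 lower, with a median of 0.03. Dpagt1 was the only one at that p. The water and glycerol channel Aqp9 stood at 0.03 and 0.18, Slc37a4 at 0.11, Treh, trehalase, at 0.32 and Mtfmt, the mitochondrial methionyl-tRNA formyltransferase, at 0.24 and -0.26. Actin cytoskeleton genes had 10 tested probe sets, 6 higher and 4 lower, led by Tpm1 and with Myo1e, a myosin motor, at 0.40. Of the protein kinases only Dapk2 and Csnk1g1, a casein kinase, were tested, the latter at 0.04 and 0.02. The window held 2 olfactory receptor genes on the array, both dim, with means of 2.01 and 2.05.

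The 103 dim probe sets had differences between genotype means of -0.36 to 0.51, and in 12 of them, or 11.7%, the genotypes did not overlap. That is near the background of 10.7% over all 18015 dim probe sets. Higher were 7 and lower 5, with backgrounds of 6.26% and 4.41%. As examples of the extremes, the lowest difference was in a probe set of Ube4a, a ubiquitin chain elongation factor, at 2.53, 2.67 and 2.62 in wild type and 2.34, 2.26 and 2.15 in the knockout. On the higher side, next to the dim probe set of Sorl1, was Slc37a2, a sugar-phosphate exchanger, at 2.40, 2.19 and 2.29 against 2.73, 2.75 and 2.64. Signals this low were left out of the main fit, and no p-value is given for them.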

How the data were processed

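Per the labels' protocols and the design text, RNA of 6 liver pools was made into biotinylated aRNA (3' IVT Express) and run on Affymetrix PM strip arrays. The deposited values are on the log2 scale, made by the authors with RMA and affy according to the submitters' processing notes, which also list limma. No version or genome build was stated there. RMA normalizes by quantiles, which reduces a shift shared by most genes.

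Genes were named by the platform annotation and placed by gene number through RefSeq (28689 of 28898 probe sets matched). Probe sets under the 40th percentile of means (log2 2.66) and 104 controls were left out. Genotypes were compared with limma 3.58.1 in R 4.3.3 (lmFit and eBayes, two-sided), with Benjamini-Hochberg adjustment over 27022 probe sets and a threshold of 0.05. The fit was tested on simulated data. Figures used matplotlib 3.10.9 in Python 3.11.15.

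The genes named are the 12 probe sets with the smallest p in each direction with their genes' other probe sets, Mpzl2, Dapk2, Trappc4 and Mindy2, the 3 leading genes of each functional list, and the 6 genes with the widest ranges. Neighbours, border genes, dim probe sets and a few others were named after their values were seen. Members and lists were chosen with earlier results of these data known. Alternatives were other normalizations, filters, priors, array weights, each array left out in turn, a block for replicate number and other units of the fit. Distance was also taken between the ends of the gene intervals nearer the centromere, whatever the strand.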

Additional observations from a re-analysis of the deposited data

How the results depend on the processing

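The number of member probe sets past the test was 1, and it became 2 with a variance trend in limma, 4 with array weights, 4 at an adjusted p under 0.10 and 0 of 113 with the brightest probe set of each gene. With that last choice 8 were at an unadjusted p under 0.01 in place of 19, 5 of them proximal and 3 distal, by construction on fewer probe sets. The Mpzl2 probe set kept an adjusted p of 0.000628 to 0.0425 in the 16 fits that hold it. With array weights Dapk2, Mindy2 and Sorl1 had limma adjusted p of 0.0355, 0.044 and 0.047, and with a variance trend Dapk2 had 0.0382. The highest limma adjusted p over the fits that hold them were 0.24, 0.265 and 0.348. A filter at the 60th percentile, log2 3.47, left Dapk2 out. Leaving out each array in turn left 1 past the test and 14 to 18 at an unadjusted p under 0.01. Same-numbered arrays of the genotypes did not deviate together (correlations of -0.105, 0.0798 and 0.00163), so no pairing by number was seen. These 3 values are too few to settle whether the numbers pair the arrays. A replicate block gave 1 past the test and 17 at that p, and changed no call.

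Of 934 refitted changes of 61 named probe sets, 20 turned sign. Their changes in the main fit lay between -0.11 and 0.12, where the median absolute change over all probe sets tested was 0.10. Without 1 array, changes ranged from -0.054 to 0.11 and from -0.023 to 0.25 for Adam10 (1450104_PM_at, 1450105_PM_at), from -0.062 to 0.013 for Arhgef12 (1451159_PM_at), from -0.031 to 0.21 and from -0.19 to 0.012 for Arpp19 (1422609_PM_at, 1422608_PM_at), and from -0.057 to 0.13 for Cgnl1 (1443861_PM_at). They ranged from -0.076 to 0.10 and from -0.14 to 0.20 for Csnk1g1 (1444964_PM_at, 1428806_PM_at), from -0.28 to 0.13 for Mindy2 (1436841_PM_at), from -0.14 to 0.072 for Rfx7 (1434521_PM_at) and from -0.17 to 0.038 for Trappc4 (1429632_PM_at). Trip4 (1422858_PM_at) went to -0.000168 after quantile normalization again. The cause of these turns was not tested. Dim probe sets, near the lower end of the signals, limit what can be said of 47 genes.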

Other observations

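Some members with a signal well above the limit for testing are given here, chosen after their values were seen. Aqp9 in its brightest probe set read 9.68, 9.68 and 9.61 in wild type and 9.76, 9.66 and 9.66 in the knockout, a log2 change of 0.03 with an interval of -0.16 to 0.23. Ttc36, whose interval overlaps that of Tmem25 by 125 bases, read 10.42, 10.20 and 10.06 against 9.94, 10.37 and 10.32, a change of -0.02 (interval -0.34 to 0.30). In both the genotypes overlapped. Stt3a, the catalytic subunit that transfers N-linked sugar chains, had a change of 0.03 (interval -0.21 to 0.27), beside -0.46 for Dpagt1, which acts at the start of the same pathway. Ppib, a cyclophilin of the endoplasmic reticulum, had a change of 0.17 (interval -0.05 to 0.39). Arcn1, a subunit of the COPI vesicle coat, read 8.36, 8.38 and 8.37 in wild type and 8.20, 8.24 and 8.06 in the knockout in 1 probe set, without overlap (log2 change -0.20), and its other tested probe set had a change of 0.11. None of these passed limma's test over all probe sets.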
